A study of Mus musculus with 9 samples.

Results

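Receptors for myeloid growth factors and cytokines were followed as a set of 10 genes, picked by their symbols: Csf3r, Csf2ra, Csf2rb, Csf2rb2, Il3ra, Il4ra, Il6ra, Il10ra, Ifngr1 and Ifnar1. All 10 are among the 23420 symbols of the deposited table, and all 10 were among the 10868 genes kept for testing. RNA came from 9 libraries of Mac1+ marrow cells. The mice were of strain C57BL/6. Each library was made by Smart-seq2 from 100 cells. Mac1 contains integrin αM, the product of Itgam, and is carried by granulocytes, monocytes and some dendritic cells.

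DKOITD libraries (n = 4) had Ezh2 and Runx1 floxed on both chromosomes, Rag1Cre, and Flt3 ITD on 1 chromosome. ITD libraries (n = 2) shared the floxed genes and Flt3 ITD but lacked Cre. WT libraries (n = 3) had the floxed genes alone, so no group was free of modified alleles. Flt3 ITD is a tandem duplication within a receptor kinase, Ezh2 a histone methyltransferase, and Runx1 a transcription factor of blood cells. Rag1 is used in lymphoid progenitors, and how many Mac1+ cells carried deleted alleles is not stated in the labels. Ezh2 stood at 18.1, 1.54, 8.04 and 10.2 RPKM in DKOITD 1 to 4, at 12.9 and 18.99 RPKM in ITD 1 and 2 and at 9.69, 2.05 and 12.4 RPKM in WT 1 to 3, and Runx1 at 16.4, 14.9, 17.6 and 10.4 RPKM in DKOITD 1 to 4, at 4.42 and 4.42 RPKM in ITD 1 and 2 and at 10.7, 13.02 and 3.53 RPKM in WT 1 to 3. DKOITD and WT overlapped in both genes, with differences of 0.14 ± 0.69 (SE; limma adjusted p = 0.913) for Ezh2 and 0.78 ± 0.46 (SE; limma adjusted p = 0.269) for Runx1, so no loss of either transcript was detected. The labels do not say which exons are floxed, and RPKM of a whole gene also counts the exons that a deletion leaves. The labels give neither age nor sex, and do not tell whether libraries are separate animals, so that p-values describe the spread between libraries, which may be technical.

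Cytokine receptors of these families lack a kinase of their own. Ligand binding joins receptor chains that carry Janus kinases (JAK), and these activate STAT transcription factors. In marrow, such receptors steer the production, survival and activation of neutrophils, monocytes and dendritic cells.

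In DKOITD against WT, the receptor for the neutrophil growth factor G-CSF (Csf3r) and the α chain for GM-CSF (Csf2ra) fell, while the ligand-binding chains for IL-10 (Il10ra) and interferon gamma (Ifngr1) rose. The other 6 receptors did not pass the test. The count was thus 2 higher and 2 lower of 10 (limma on log2(RPKM + 1), Benjamini-Hochberg adjusted p under 0.05 over all tested genes), where 7.43% of all tested genes were higher and 5.27% lower, together 12.7%. At an unadjusted p under 0.05 the same 4 were found, beside 30.2% of all tested genes. The median difference was 0.094 over the 10 receptors and 0.17 over all tested genes.

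Promoters are shown for the receptors that fell and for Ifngr1, which rose, so that genes of opposite direction stand side by side. They are the 250 bases before the RefSeq start, 5′ to 3′ on the strand of the gene in GRCm38.p6: chr4:126024409-126024658 (plus strand), chr19:61228419-61228668 (minus strand) and chr10:19591699-19591948 (plus strand). The GENCODE starts of Csf3r and Csf2ra lie within their windows. Capitals mark GAGGAA, a core sequence of sites for ETS factors such as PU.1.
Csf3r: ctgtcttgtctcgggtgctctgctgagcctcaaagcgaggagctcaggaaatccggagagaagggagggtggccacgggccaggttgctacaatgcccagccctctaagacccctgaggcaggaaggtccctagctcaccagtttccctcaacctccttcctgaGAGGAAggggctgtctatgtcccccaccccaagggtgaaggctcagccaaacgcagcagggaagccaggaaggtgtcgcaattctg
Csf2ra: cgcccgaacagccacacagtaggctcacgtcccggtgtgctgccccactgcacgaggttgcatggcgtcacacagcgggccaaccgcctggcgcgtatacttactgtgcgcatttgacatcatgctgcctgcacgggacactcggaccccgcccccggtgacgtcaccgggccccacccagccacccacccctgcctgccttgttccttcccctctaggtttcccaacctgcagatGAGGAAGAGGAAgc
Ifngr1: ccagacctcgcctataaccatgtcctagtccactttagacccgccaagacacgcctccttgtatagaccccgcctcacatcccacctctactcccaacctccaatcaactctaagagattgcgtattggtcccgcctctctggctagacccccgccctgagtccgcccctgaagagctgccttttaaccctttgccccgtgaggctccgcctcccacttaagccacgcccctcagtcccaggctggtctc

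RefSeq windows were matched for 8 of the 10 receptors, all but Csf2rb and Il10ra. On either strand, GAGGAA occurred in 5 of the 8 (Csf3r, Csf2ra, Csf2rb2, Il6ra and Ifnar1), beside 23.3% of 32851 windows of equal length. It lay at -86 to -81 from the RefSeq start in Csf3r, and at -14 to -9 and -8 to -3 in Csf2ra. By the GENCODE starts, the Csf3r site and the Csf2ra site at -8 to -3 lie inside the gene, not before it. The Csf2ra site at -14 to -9 crosses the GENCODE start. The C/EBP sequence TTNNGCAA, in 9.56% of all windows, occurred in Il3ra alone of the 8, and the STAT sequence TTCNNNGAA, in 7.02%, in Csf2rb2 alone. By its GENCODE start, the Il3ra site too lies inside the gene. The joint ETS and IRF element (2.30% of all windows) and TATAAA (12.4%) occurred in 0 of the 8. No 2 of these motifs overlapped in a receptor window. Genes with the ETS core include receptors that fell and receptors that did not pass. The latter had positive differences in DKOITD against WT, at 0.48 for Csf2rb2, 0.69 for Il6ra and 0.32 for Ifnar1. Of the receptors that rose, Ifngr1 alone had a window. A link between motif and direction was not tested.

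Libraries differed in depth and in their mix of cell type markers. Reads recovered from the deposited RPKM numbered 2825728 to 23124435 per library. Itgam was detected in every library, at 10.98 to 39.03 RPKM in DKOITD, at 78.1 and 97.3 RPKM in ITD and at 90.3 to 143 RPKM in WT, and it fell by 2.11 ± 0.40 on the log2 scale (SE; limma adjusted p = 0.00813) in DKOITD against WT. Neutrophil markers (12 of 13, Ly6g not used here) summed to 36983 to 266138 RPKM for DKOITD libraries, 684962 and 729004 for ITD libraries and 883452 to 1193610 for WT libraries, and 9 of the 12 fell in DKOITD against WT. Dendritic markers (13) summed to 9415 to 38076 RPKM for DKOITD libraries, 4212 and 11372 for ITD libraries and 44.3 to 1204 for WT libraries, and 11 of 12 tested rose. Zbtb46, Xcr1 and Ccr7 among them were listed at 0 in every ITD and WT library. Monocyte markers (9 of 10, Adgre1 not used here) summed to 2149 to 3403 RPKM for DKOITD libraries, 3725 and 3916 for ITD libraries and 2701 to 3226 for WT libraries, and 3 of 9 rose. Most of this sum was Ly6c2, whose difference was -0.65 ± 0.27 (SE; limma adjusted p = 0.128) in DKOITD against WT. The sum thus hides that 7 of 9 monocyte markers had positive differences, with a median of 1.44. Summed markers of plasmacytoid dendritic cells were 54.9 to 265 RPKM for DKOITD libraries, 43.5 and 63.9 for ITD libraries and 4.70 to 20.9 for WT libraries. Those of B cells were 42.7 to 70.8 RPKM for DKOITD libraries, 7.65 and 23.2 for ITD libraries and 5.16 to 15.5 for WT libraries. Those of NK cells were 8.21 to 50.1 RPKM for DKOITD libraries, 40.1 and 194 for ITD libraries and 67.2 to 342 for WT libraries, and those of erythroid cells 0 to 1.40 RPKM for DKOITD libraries, 0 and 2729.8 for ITD libraries and 17.8 to 17156 for WT libraries. In every library 1 gene made up most of each of 5 sums. These genes were S100a8 for neutrophils, Ly6c2 for monocytes, Bst2 for plasmacytoid dendritic cells, Cd79b for B cells and Nkg7 for NK cells. The globin gene Beta-s made up most of the erythroid sum in WT and in ITD 2 (all these genes were named after their values were seen). The NK markers Ncr1, Klrb1c, Eomes and Prf1 were listed at 0 in 7 of 9 libraries, and the B cell marker Pax5 in all 9. Markers of T cells, of eosinophils, basophils and mast cells, and of stem and progenitor cells summed to at most 17.6 RPKM in any library. WT 2 stood apart: its correlations of log2 values to the other 8 libraries had a median of 0.759, where this median was 0.815 to 0.881 for the rest. Their part in the receptor values was not tested, and in bulk libraries fewer cells of a type and less RNA per cell cannot be told apart.

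**Figure D1:**
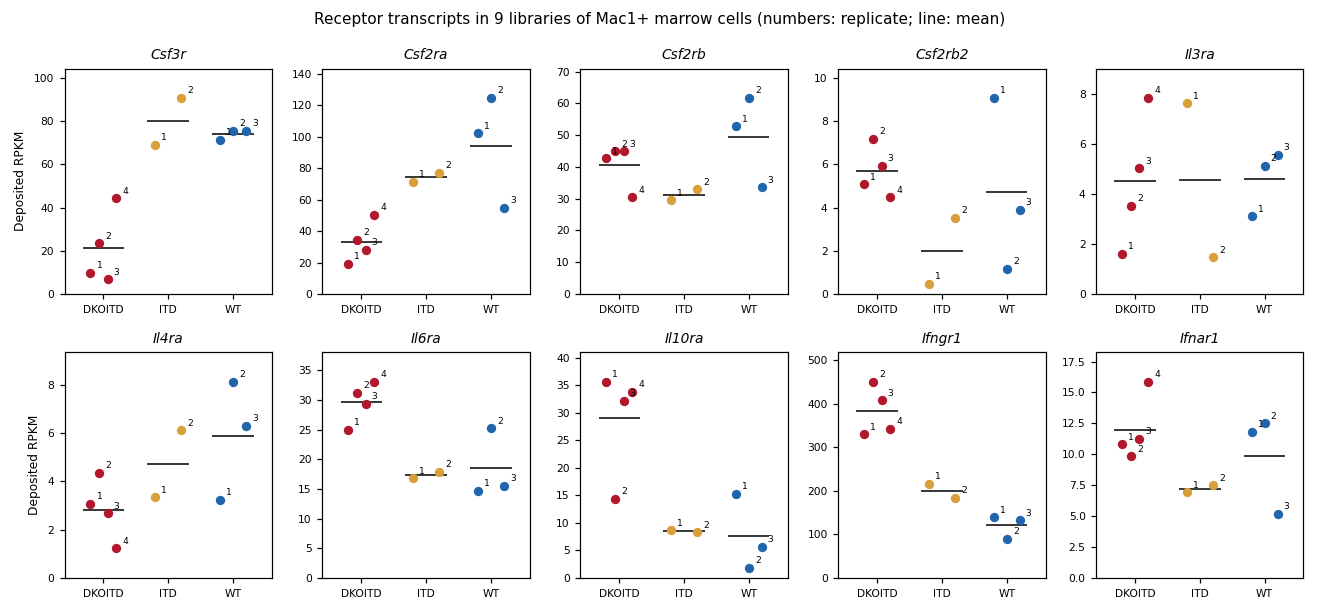
Deposited RPKM of 10 receptor genes (vertical axes, from 0) in DKOITD, ITD and WT libraries, drawn as points numbered by replicate with lines at the group means. Csf3r lies at 6.83 to 44.2 RPKM in DKOITD and 71.4 to 75.5 RPKM in WT, and Ifngr1 at 329.8 to 451 RPKM in DKOITD and 90.2 to 139 RPKM in WT.

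Csf3r (chromosome 4, 126024550 to 126044440, plus strand, GENCODE vM21 in mm10 coordinates) binds G-CSF, which drives neutrophil production. It stood at 9.83, 23.5, 6.83 and 44.2 RPKM in DKOITD 1 to 4, at 68.98 and 90.7 RPKM in ITD 1 and 2 and at 71.4, 75.4 and 75.5 RPKM in WT 1 to 3. Each DKOITD library was below all ITD and WT libraries, with DKOITD 3 and 1 lowest. WT libraries were close together, at 74.1 ± 2.35 RPKM (SD, n = 3), while DKOITD libraries spread widely, at 21.1 ± 17.04 RPKM (SD, n = 4). Csf3r fell by 2.10 ± 0.51 on the log2 scale (SE; limma adjusted p = 0.0226) against WT. Its difference against ITD, -2.19 ± 0.58 (SE; limma adjusted p = 0.0935), did not pass. Summed neutrophil markers in DKOITD 1 to 4 were 59378, 202060, 36983 and 266138 RPKM, which ranks these libraries as Csf3r does. WT libraries had sums of 883452 to 1193610 RPKM, lowest in WT 3. Their Csf3r, at 71.4 to 75.5 RPKM, was too close together to rank them. Both ITD sums, 684962 and 729004 RPKM, lay below all WT sums, while Csf3r averaged 79.8 RPKM in ITD and 74.1 RPKM in WT. ITD 2 was above ITD 1 in both. Whether neutrophil content set Csf3r was not tested. Within each library, Csf3r exceeded 60.1%, 78.4%, 51.1% and 87.1% of the tested genes in DKOITD 1 to 4 and 91.96%, 92.3% and 91.9% in WT 1 to 3.

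Csf2ra (chromosome 19, 61223957 to 61228429, minus strand) is the chain that binds GM-CSF, a growth factor of granulocytes, macrophages and dendritic cells. It stood at 19.1, 34.5, 28.04 and 50.3 RPKM in DKOITD 1 to 4, at 71.3 and 76.9 RPKM in ITD 1 and 2 and at 102, 124 and 54.7 RPKM in WT 1 to 3. DKOITD and WT did not overlap, although DKOITD 4 came close to WT 3. Csf2ra fell by 1.48 ± 0.38 on the log2 scale (SE; limma adjusted p = 0.0274) against WT, and its difference against ITD was -1.22 ± 0.43 (SE; limma adjusted p = 0.188). It exceeded 73.7% to 88.8% of the tested genes in DKOITD and 89.1% to 95.4% in WT.

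Both calls ended without DKOITD 1, DKOITD 3, WT 1 or WT 2. The limma adjusted p was then 0.0660, 0.0605, 0.0517 and 0.0564 for Csf3r and 0.0779, 0.0774, 0.0734 and 0.0866 for Csf2ra. With no filter on low values the adjusted p was 0.0822 for Csf3r and 0.0700 for Csf2ra. Both calls also ended when values were scaled per recovered read, at -1.37 and -0.73 beside a median of 0.74 over all genes, and when scaled to the sum of RPKM, at -0.75 and -0.10 beside a median of 1.23. Relative to the median of all genes, Csf3r differed by -2.27 as deposited and by -2.10 to -1.99 on the other 3 scales, and Csf2ra by -1.65 and by -1.47 to -1.33.

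Csf2rb (chromosome 15, 78325752 to 78353847, plus strand) is the β chain that the receptors for GM-CSF, IL-3 and IL-5 share. It stood at 42.7, 44.9, 44.98 and 30.5 RPKM in DKOITD 1 to 4, at 29.5 and 32.9 RPKM in ITD 1 and 2 and at 52.8, 61.7 and 33.6 RPKM in WT 1 to 3. DKOITD and WT overlapped, and the difference of -0.24 ± 0.31 (SE; limma adjusted p = 0.623) did not pass. It was 0.51 per recovered read and 1.14 on the scale of summed RPKM, where it passed (limma adjusted p = 0.0250), and relative to the median of all genes between -0.42 and -0.10 on the 4 scales. The ratio of Csf2ra to Csf2rb stood at 0.449, 0.768, 0.623 and 1.65 in DKOITD 1 to 4, at 2.42 and 2.34 in ITD 1 and 2 and at 1.93, 2.02 and 1.63 in WT 1 to 3. DKOITD 4 lay within the WT range of this ratio and the other 3 DKOITD libraries lay below it.

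Csf2rb2 (chromosome 15, 78282507 to 78305721, minus strand) is a second β chain of the mouse, used for IL-3. It stood at 5.08, 7.17, 5.94 and 4.48 RPKM in DKOITD 1 to 4, at 0.461 and 3.53 RPKM in ITD 1 and 2 and at 9.07, 1.17 and 3.89 RPKM in WT 1 to 3. WT libraries spread beyond the DKOITD range on both sides, and the difference of 0.48 ± 0.60 (SE; limma adjusted p = 0.615) did not pass and was -0.090 without WT 2. The pair is closely related: 19.02% of the words of 50 bases in a Csf2rb2 transcript occur in Csf2rb, and 18.4% of those of Csf2rb occur in Csf2rb2. At 100 bases these shares were 7.20% and 6.96%. Reads of these stretches may have been split between the pair or left out, so both levels are uncertain.

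Il3ra (chromosome 14, 14346275 to 14356011, plus strand), the chain that binds IL-3, stood at 1.61, 3.53, 5.04 and 7.85 RPKM in DKOITD 1 to 4, at 7.64 and 1.47 RPKM in ITD 1 and 2 and at 3.10, 5.14 and 5.57 RPKM in WT 1 to 3. Libraries of 1 genotype differed more than the group means did, and the difference between DKOITD and WT was -0.13 ± 0.58 (SE; limma adjusted p = 0.901). It rested on 18 to 164 reads per library, against 2128 to 10776 for Ifngr1. Il5ra, the chain that binds IL-5, was listed at 0 in 8 libraries and at 1.62 RPKM in DKOITD 4, and it did not enter the test.

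Il4ra (chromosome 7, 125552120 to 125579474, plus strand) binds IL-4 and signals with Il2rg or with Il13ra1. It stood at 3.08, 4.35, 2.69 and 1.22 RPKM in DKOITD 1 to 4, at 3.35 and 6.13 RPKM in ITD 1 and 2 and at 3.23, 8.14 and 6.30 RPKM in WT 1 to 3. WT 1 lay within the DKOITD range, and the difference of -0.84 ± 0.50 (SE; limma adjusted p = 0.272) did not pass. Il2rg, the γ chain common to several interleukin receptors, stood at 327, 71.8, 194 and 206 RPKM in DKOITD 1 to 4, at 47.99 and 166 RPKM in ITD 1 and 2 and at 25.3, 72.8 and 50.8 RPKM in WT 1 to 3. It rose by 1.92 ± 0.55 on the log2 scale (SE; limma adjusted p = 0.0407) against WT, although DKOITD 2 lay below WT 2. Il13ra1, which also binds IL-13, stood at 68.2, 78.3, 77.99 and 40.8 RPKM in DKOITD 1 to 4, at 9.02 and 25.4 RPKM in ITD 1 and 2 and at 23.7, 5.90 and 6.86 RPKM in WT 1 to 3. It rose by 2.57 ± 0.50 on the log2 scale (SE; limma adjusted p = 0.00884) against WT with no overlap. The ratio of Il4ra to Il2rg stood at 0.00940, 0.0606, 0.0139 and 0.00590 in DKOITD 1 to 4, at 0.0697 and 0.0369 in ITD 1 and 2 and at 0.128, 0.112 and 0.124 in WT 1 to 3, so that Il2rg exceeded Il4ra in every library and the ratio did not overlap between DKOITD and WT.

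Il6ra (chromosome 3, 89864059 to 89913196, minus strand) binds IL-6 and signals through Il6st, known as gp130. It stood at 25.00, 31.3, 29.4 and 33.1 RPKM in DKOITD 1 to 4, at 16.8 and 17.9 RPKM in ITD 1 and 2 and at 14.7, 25.2 and 15.5 RPKM in WT 1 to 3. WT 2 reached into the DKOITD range, and the difference of 0.69 ± 0.32 (SE; limma adjusted p = 0.173) did not pass. It passed per recovered read, at 1.42 (limma adjusted p = 0.00862), and on the scale of summed RPKM, at 2.04 (limma adjusted p = 0.00117). Relative to the median of all genes it was between 0.52 and 0.81 on the 4 scales. Il6st stood at 7.24, 5.62, 5.37 and 2.61 RPKM in DKOITD 1 to 4, at 0.117 and 1.44 RPKM in ITD 1 and 2 and at 6.11, 0.567 and 0.396 RPKM in WT 1 to 3, with a difference of 1.25 ± 0.63 (SE; limma adjusted p = 0.203), and Il6ra exceeded it in every library.

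Il10ra (chromosome 9, 45253837 to 45269149, minus strand) binds IL-10, which restrains macrophage and dendritic cell activation. It stood at 35.6, 14.4, 32.2 and 33.8 RPKM in DKOITD 1 to 4, at 8.60 and 8.25 RPKM in ITD 1 and 2 and at 15.2, 1.85 and 5.68 RPKM in WT 1 to 3. DKOITD 1, 3 and 4 were above all ITD and WT libraries, while DKOITD 2 lay just below WT 1. Il10ra rose by 2.07 ± 0.55 on the log2 scale (SE; limma adjusted p = 0.0317) against WT, and its difference against ITD was 1.59 ± 0.63 (SE; limma adjusted p = 0.241). DKOITD 2 had also the lowest sum of dendritic markers in its group, 9415 RPKM against 38076, 36255 and 36579 RPKM in DKOITD 1, 3 and 4. Whether dendritic content set Il10ra was not tested. The call ended without DKOITD 1, DKOITD 3, DKOITD 4, WT 2 or WT 3, at limma adjusted p = 0.0918, 0.0921, 0.0706, 0.0929 and 0.05001, with the difference at 1.45 to 2.70 over all single omissions. It ended too with no filter on low values (limma adjusted p = 0.0933) and with library weights (limma adjusted p = 0.0545). Its partner Il10rb stood at 54.5, 42.1, 63.2 and 47.8 RPKM in DKOITD 1 to 4, at 33.98 and 37.9 RPKM in ITD 1 and 2 and at 25.8, 66.7 and 57.01 RPKM in WT 1 to 3, with a difference of 0.15 ± 0.35 (SE; limma adjusted p = 0.804). The ratio of Il10ra to Il10rb stood at 0.654, 0.342, 0.509 and 0.707 in DKOITD 1 to 4, at 0.253 and 0.218 in ITD 1 and 2 and at 0.592, 0.0277 and 0.0997 in WT 1 to 3.

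Ifngr1 (chromosome 10, 19591949 to 19610229, plus strand) binds interferon gamma, an activator of macrophages and of antigen presentation. It stood at 329.8, 451, 408 and 343 RPKM in DKOITD 1 to 4, at 216 and 183 RPKM in ITD 1 and 2 and at 139, 90.2 and 132 RPKM in WT 1 to 3. DKOITD libraries were above ITD libraries, and ITD libraries above WT libraries, without overlap. Ifngr1 rose by 1.67 ± 0.26 on the log2 scale (SE; limma adjusted p = 0.00346) against WT, a fold of 3.19. DKOITD 2 had the highest Ifngr1 of all libraries and the lowest sum of dendritic markers in DKOITD. It also had the fewest recovered reads, 2825728, and whether dendritic content set Ifngr1 was not tested. Neither the difference against ITD, 0.93 ± 0.29 (SE; limma adjusted p = 0.142), nor that between ITD and WT, 0.74 ± 0.31 (SE; limma adjusted p = 0.598), passed. The call against WT held without any 1 library, with differences of 1.48 to 1.79, but ended without both DKOITD 1 and DKOITD 3 (limma adjusted p = 0.0739), an omission chosen after seeing the data. Relative to the median of all genes the difference was 1.5 as deposited and 1.70 to 1.84 on the other 3 scales. Ifngr1 exceeded 98.4% to 99.02% of the tested genes in DKOITD, 96.9% and 97.5% in ITD and 93.5% to 95.97% in WT.

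Ifngr2, the chain that completes this receptor, stood at 58.03, 67.3, 76.4 and 95.5 RPKM in DKOITD 1 to 4, at 60.2 and 94.7 RPKM in ITD 1 and 2 and at 90.5, 95.5 and 64.3 RPKM in WT 1 to 3. Its difference between DKOITD and WT was -0.17 ± 0.30 (SE; limma adjusted p = 0.733). The ratio of Ifngr1 to Ifngr2 stood at 5.68, 6.70, 5.34 and 3.59 in DKOITD 1 to 4, at 3.59 and 1.94 in ITD 1 and 2 and at 1.54, 0.944 and 2.05 in WT 1 to 3. This ratio cannot be moved by the scaling of a library, and it did not overlap between DKOITD and WT.

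Ifnar1 (chromosome 16, 91485238 to 91507441, plus strand) is a chain of the receptor for interferon alpha and beta. It stood at 10.8, 9.83, 11.3 and 15.9 RPKM in DKOITD 1 to 4, at 6.93 and 7.49 RPKM in ITD 1 and 2 and at 11.8, 12.5 and 5.17 RPKM in WT 1 to 3. DKOITD and WT overlapped, and the difference of 0.32 ± 0.41 (SE; limma adjusted p = 0.626) did not pass and was -0.045 without WT 3. Its partner Ifnar2 stood at 47.2, 37.3, 32.2 and 47.7 RPKM in DKOITD 1 to 4, at 38.9 and 43.2 RPKM in ITD 1 and 2 and at 50.3, 58.6 and 26.2 RPKM in WT 1 to 3, with a difference of -0.070 ± 0.34 (SE; limma adjusted p = 0.910).

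**Figure D2:**
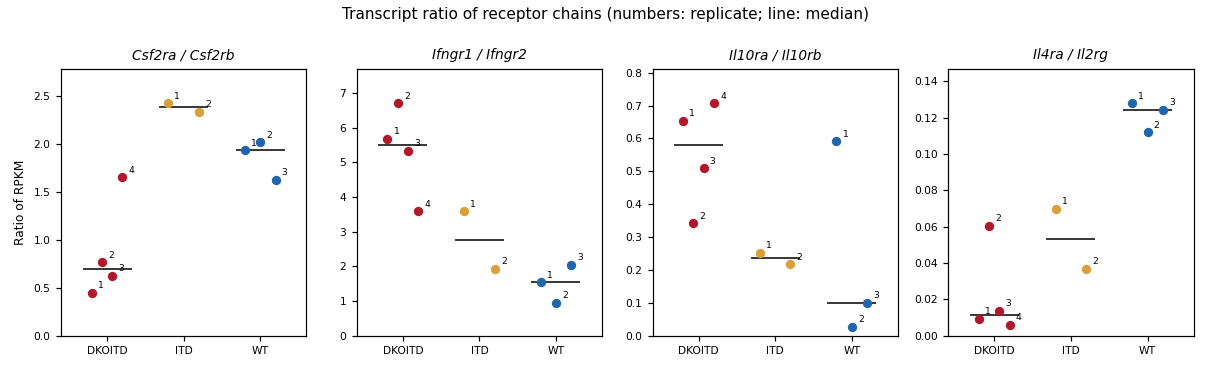
Ratio of RPKM between chains of a receptor (vertical axes, from 0) in DKOITD, ITD and WT libraries, drawn as points numbered by replicate with lines at the group medians. Ifngr1 to Ifngr2 lies at 3.59 to 6.70 in DKOITD and at 0.944 to 2.05 in WT.

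**Figure D3:**
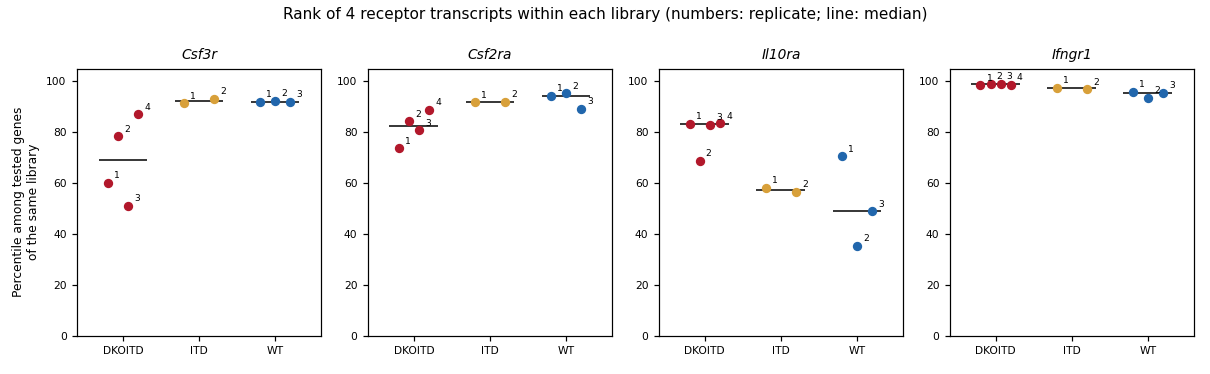
Percentage of tested genes of the same library below Csf3r, Csf2ra, Il10ra and Ifngr1 (vertical axes) in DKOITD, ITD and WT libraries, drawn as points numbered by replicate with lines at the group medians. Il10ra overlaps, at 68.7% in DKOITD 2 and 70.5% in WT 1, and the other 3 receptors do not overlap between DKOITD and WT.

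By level per length, the order of the receptors differed between groups. In DKOITD, Ifngr1 averaged 383 ± 56.7 RPKM and no other receptor reached its range. Csf2rb at 40.7 ± 6.94 RPKM, Csf2ra at 33.00 ± 13.2 RPKM, Il6ra at 29.7 ± 3.47 RPKM, Il10ra at 29.00 ± 9.83 RPKM and Csf3r at 21.1 ± 17.04 RPKM followed, each overlapping with the next (SD, n = 4). In ITD, Ifngr1 at 199.8 ± 23.03 RPKM preceded Csf3r at 79.8 ± 15.4 RPKM and Csf2ra at 74.1 ± 3.92 RPKM, of which the last pair overlapped (SD, n = 2). In WT, Ifngr1 at 121 ± 26.6 RPKM, Csf2ra at 93.7 ± 35.6 RPKM and Csf3r at 74.1 ± 2.35 RPKM led, and these neighbours overlapped (SD, n = 3). Csf2rb2, Il3ra and Il4ra had the 3 lowest means in each group. Ifngr1 made up 60.7% to 72.2% of the summed RPKM of the 10 receptors in DKOITD, 42.8% and 50.3% in ITD and 22.2% to 39.1% in WT. Csf3r and Csf2ra together made up 6.004% to 16.8% in DKOITD, 32.7% and 39.1% in ITD and 38.5% to 49.3% in WT.

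By their labels, DKOITD and ITD differ in Rag1Cre and share Flt3 ITD. Here 0 of the 10 receptors passed (limma), where 0.212% of all tested genes did (0.156% higher and 0.0552% lower). At an unadjusted p under 0.05 there were 4 receptors, Csf3r, Csf2ra, Il10ra and Ifngr1, beside 15.7% of all tested genes. Groups did not overlap in 7 receptors, beside 31.3% of all tested genes. In these, DKOITD libraries lay above ITD libraries for 5 receptors (Csf2rb2, Il6ra, Il10ra, Ifngr1 and Ifnar1), beside 17.3% of all tested genes, and below them for 2 (Csf3r and Csf2ra), beside 14%. ITD against WT sets Flt3 ITD apart, and 0 of the 10 passed (limma), where 0.0092% of all tested genes did. At an unadjusted p under 0.05 there was 1, Ifngr1, beside 7.93% of all tested genes. Groups did not overlap in 2, beside 19.1%: ITD libraries lay above WT libraries for Ifngr1 (10.1% of all tested genes) and below them for Csf2rb (8.99%). In DKOITD against WT 3 receptors did not overlap, beside 25% of all tested genes: Ifngr1 above WT (14.1%) and Csf3r and Csf2ra below it (10.9%). The comparisons share libraries and are not independent.

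The differences of the other 6 receptors against ITD were 0.36 ± 0.35 (SE; limma adjusted p = 0.674) for Csf2rb, 1.36 ± 0.68 (SE; limma adjusted p = 0.364) for Csf2rb2 and 0.12 ± 0.66 (SE; limma adjusted p = 0.958) for Il3ra. They were -0.61 ± 0.57 (SE; limma adjusted p = 0.651) for Il4ra, 0.74 ± 0.37 (SE; limma adjusted p = 0.363) for Il6ra and 0.64 ± 0.47 (SE; limma adjusted p = 0.558) for Ifnar1. Between ITD and WT, the growth factor receptors differed by 0.093 ± 0.61 (SE; limma adjusted p = 0.999) for Csf3r and -0.26 ± 0.45 (SE; limma adjusted p = 0.906) for Csf2ra, and the β chains and Il3ra by -0.60 ± 0.37 (SE; limma adjusted p = 0.712) for Csf2rb, -0.88 ± 0.71 (SE; limma adjusted p = 0.776) for Csf2rb2 and -0.25 ± 0.69 (SE; limma adjusted p = 0.956) for Il3ra. For the remaining chains the values were -0.24 ± 0.60 (SE; limma adjusted p = 0.948) for Il4ra, -0.049 ± 0.39 (SE; limma adjusted p = 1) for Il6ra, 0.48 ± 0.66 (SE; limma adjusted p = 0.870) for Il10ra and -0.32 ± 0.49 (SE; limma adjusted p = 0.885) for Ifnar1. None of these passed, and with 2 ITD libraries the SE of each was 0.29 or more.

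**Figure D4:**
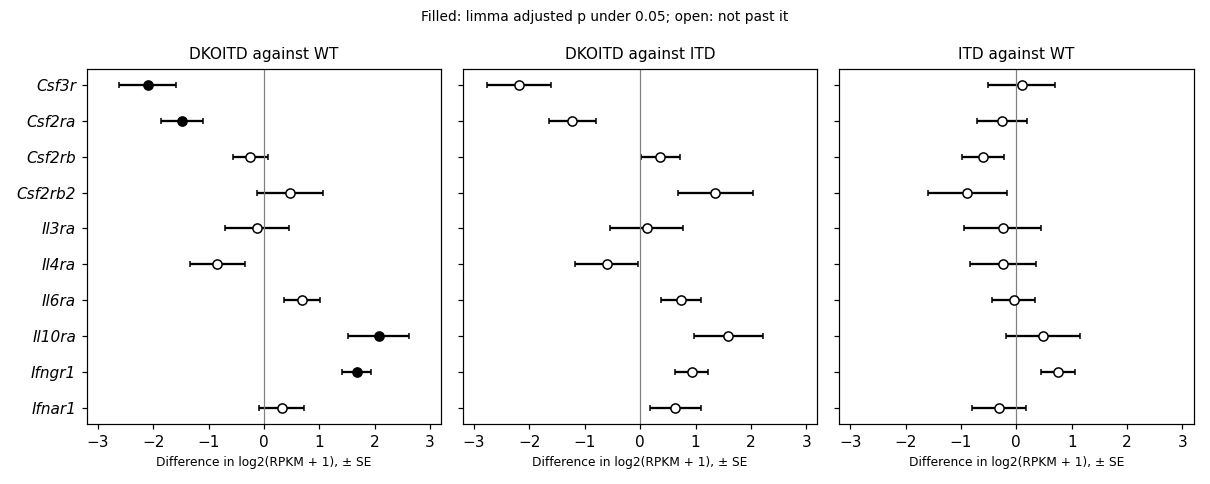
Difference in log2(RPKM + 1) with its SE (horizontal axes) for 10 receptors in DKOITD against WT, DKOITD against ITD and ITD against WT, with filled points past a limma adjusted p of 0.05. Filled points are Csf3r at -2.10, Csf2ra at -1.48, Il10ra at 2.07 and Ifngr1 at 1.67 in DKOITD against WT, and all other points are open.

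Numbers in the labels form a lower series (DKOITD 1 to 3, 228 to 274) and a higher one (DKOITD 4 and all ITD and WT libraries, 385 to 393), and their meaning is not stated. Within the higher series, DKOITD 4 compared with WT as follows. Csf3r was 44.2 RPKM against 71.4 to 75.5 RPKM in WT, Csf2ra 50.3 RPKM against 54.7 to 124 RPKM in WT, Il10ra 33.8 RPKM against 1.85 to 15.2 RPKM in WT, and Ifngr1 343 RPKM against 90.2 to 139 RPKM in WT. With the number series as a term, DKOITD 1 to 3 are set apart, and the contrast rests on DKOITD 4 alone against WT. With 1 DKOITD library, calls lost there cannot decide whether the number series mattered. The differences with this term were -0.73 for Csf3r, -0.80 for Csf2ra, 2.36 for Il10ra and 1.52 for Ifngr1. For DKOITD 1 to 3, genotype and number series cannot be told apart.

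Calls also depended on how libraries were scaled. Summed RPKM was 442684 to 725674 for DKOITD libraries and 1340290 to 1645340 for WT libraries. In DKOITD against WT, the median difference of all tested genes was 0.17 as deposited. It was 0.74 per recovered read and 1.23 on the scale of summed RPKM. Rises on these 2 scales were thus not particular to the receptors. Of the receptors in DKOITD against WT, 2 rose and 2 fell as deposited, 2 rose and 2 fell under quantile normalization, 3 rose and 0 fell per recovered read and 6 rose and 0 fell on the scale of summed RPKM. Of all genes 807 rose and 573 fell as deposited, 678 rose and 767 fell under quantile normalization, 2525 rose and 247 fell per recovered read and 5008 rose and 127 fell on the scale of summed RPKM.

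Genes with the most similar course over the 9 libraries were ranked by the root mean square difference of centred log2(RPKM + 1). Nearest to Csf3r, whose SD over libraries was 1.33, were Fpr1 at 0.243, Pglyrp1 at 0.279 and Pilra at 0.282. Fpr1 is a formyl peptide receptor of phagocytes and Pglyrp1 binds peptidoglycan. Nearest to Csf2ra (SD 0.866) were Arfgef1 at 0.136, Sorl1 at 0.202 and Arap1 at 0.202. Nearest to Il10ra (SD 1.24) were Lbh at 0.266, Prcp at 0.392 and Ppan at 0.413, and to Ifngr1 (SD 0.810) Map7 at 0.246, Canx at 0.249 and Serp1 at 0.249, of which Canx is a chaperone of the endoplasmic reticulum. For the other 6 receptors the nearest gene was Rbm17 at 0.119 for Csf2rb, Rfk at 0.299 for Csf2rb2, Rufy2 at 0.341 for Il3ra, Slc35a5 at 0.202 for Il4ra, Snd1 at 0.181 for Il6ra and Pitpna at 0.161 for Ifnar1. Genes nearer than 1, predicted or unnamed models left out, numbered 1185 for Csf3r, 4154 for Csf2ra, 2183 for Il10ra and 5562 for Ifngr1. For the other 6 they numbered 4072 to 7368. Many genes thus lay near, and shared control was not tested.

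Further genes of the pathway are described by lists, in DKOITD against WT unless stated, with limma's adjusted p under 0.05 as the threshold. Beside each count stand 7.43% of all tested genes higher and 5.27% lower. Each list median is given as deposited and per recovered read, where the median of all tested genes was 0.17 and 0.74. For the other cytokine receptors, the JAK and STAT genes, the ligands and the IL-10 targets the median changed sign between these scales. Of the partner chains, 2 of 6 tested rose and 0 fell (median 0.70, per read 1.33). Of 38 other cytokine receptors, 22 were tested, 4 rose and 3 fell (median -0.22, per read 0.37). Flt3, the gene that carries the ITD, is among the dendritic markers as well. It stood at 34.5, 26.1, 39.2 and 8.80 RPKM in DKOITD 1 to 4, at 0 and 10.4 RPKM in ITD 1 and 2 and at 0.0146, 0.145 and 0 RPKM in WT 1 to 3. Flt3 (4.56), Lifr (3.31), the receptor for leukaemia inhibitory factor, and Il15ra (2.83), which presents IL-15, rose. So did Il7r, at 6.40, 16.3, 4.06 and 2.02 RPKM in DKOITD 1 to 4 and listed at 0 in all ITD and WT libraries. Il7r was thus kept through DKOITD and could hardly come out lower there. Ifnlr1 (-2.89), a chain for interferon lambda, and Crlf2 (-1.51), a receptor for thymic stromal lymphopoietin, fell. Of 11 JAK and STAT genes 0 passed (limma) and 5 had an unadjusted p under 0.05, beside 30.2% of all tested genes (median -0.042, per read 0.67).

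Of 19 inhibitors of cytokine signalling 3 rose and 0 fell (median 0.40, per read 0.94). Socs2, an inhibitor induced through STAT5, stood at 17.1, 5.78, 11.03 and 4.95 RPKM in DKOITD 1 to 4 and was listed at 0 in all ITD and WT libraries. Socs5 stood at 3.68, 3.30, 2.25 and 1.29 RPKM in DKOITD 1 to 4 and at 0.201 RPKM or less in all ITD and WT libraries. It rose by 1.63 ± 0.41 on the log2 scale (SE; limma adjusted p = 0.0249). Socs2 and Socs5 reached RPKM 1 in DKOITD libraries alone, and so could hardly come out lower there. Usp18, which restrains interferon alpha and beta signalling, rose by 3.41 ± 0.86 on the log2 scale (SE; limma adjusted p = 0.0254). Usp18 overlapped between the groups, with 12.2 RPKM in DKOITD 2 and 1.55 to 15.9 RPKM in WT. Of 24 ligands 7 passed the filter on low values, of which Il18 (3.01) and Il27 (2.39) rose and Osm (-2.31), oncostatin M, fell (median -0.079, per read 0.38).

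**Figure D5:**
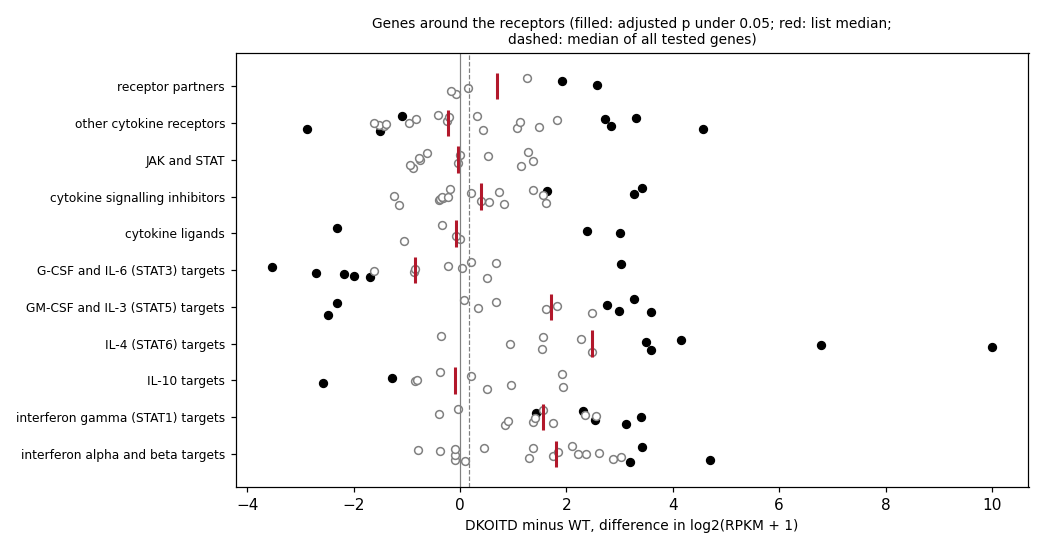
Difference in log2(RPKM + 1) between DKOITD and WT (horizontal axis) for tested genes of 11 lists, with filled points past a limma adjusted p of 0.05, red marks at list medians and a dashed line at the median of all tested genes, 0.17. List medians lie between -0.86 for G-CSF and IL-6 targets and 2.48 for IL-4 targets as deposited, and these 2 medians are -0.20 and 2.70 per recovered read. The IL-4 median of 2.48 is the value of Ccl17, listed at 0 in all ITD and WT libraries.

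Genes known to respond to these receptors also respond to other signals, and some mark cell types. Of 14 G-CSF and IL-6 targets 5 fell and 1 rose (median -0.86, per read -0.20). Lcn2 (-3.54), Cxcr2 (-2.71), Cebpd (-2.18), Cebpb (-1.996) and Cd177 (-1.70) fell, and Myc (3.02) rose. Lcn2, an iron-trapping granule protein, and Cxcr2, a chemokine receptor, are among the neutrophil markers as well. Cebpd, a transcription factor of myeloid genes, stood at 15.7, 18.4, 6.30 and 29.6 RPKM in DKOITD 1 to 4, at 29.9 and 20.3 RPKM in ITD 1 and 2 and at 52.99, 109 and 67.7 RPKM in WT 1 to 3.

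Of 12 tested GM-CSF and IL-3 targets 4 rose and 2 fell (median 1.71, per read 2.13). Socs2, Ccl22, Ccl17 and Il2ra of this list reached RPKM 1 in DKOITD libraries alone, and so could hardly come out lower there. Ccl22, a chemokine of dendritic cells and macrophages, stood at 6.64, 16.3, 13.7 and 10.1 RPKM in DKOITD 1 to 4 and was listed at 0 in all ITD and WT libraries. The cyclin Ccnd2 (2.99) and the transcription factor Irf4 (2.76) rose, as did Socs2. The survival gene Bcl2l1 stood at 1.47, 0.461, 2.07 and 3.57 RPKM in DKOITD 1 to 4, at 5.03 and 10.6 RPKM in ITD 1 and 2 and at 16.2, 11.3 and 15.03 RPKM in WT 1 to 3. It fell by 2.49 ± 0.50 on the log2 scale (SE; limma adjusted p = 0.00995), and Osm fell as well. Against ITD, Ccl22 and Socs2 rose and 0 of the 12 fell.

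Of 11 tested IL-4 targets 5 rose and 0 fell (median 2.48, per read 2.70), namely Ccl22 and the lectins Cd209a (10.01), Clec10a (6.79), Mrc1 (4.15) and Mgl2 (3.50). Ccl17, Ccl22, Retnla, Ccl24 and Fcer2a of this list reached RPKM 1 in DKOITD libraries alone. They entered the test through that group and could hardly come out lower there. The deposited median is the value of Ccl17, at 0, 62.3, 14.4 and 0 RPKM in DKOITD 1 to 4. Ccl17 was listed at 0 in all ITD and WT libraries. Cd209a and Clec10a are among the dendritic markers as well. Clec10a stood at 186, 109, 276 and 186 RPKM in DKOITD 1 to 4, at 15.9 and 27.6 RPKM in ITD 1 and 2 and at 2.35, 0.236 and 0.0575 RPKM in WT 1 to 3. Of 10 IL-10 targets 2 fell and 0 rose (median -0.087, per read 0.48). The IL-1 receptor antagonist Il1rn fell by 2.58 ± 0.61 on the log2 scale (SE; limma adjusted p = 0.0210), and Sbno2 fell by 1.28 ± 0.38 on the log2 scale (SE; limma adjusted p = 0.0474). Il4ra is itself among the G-CSF and IL-6 and the IL-10 targets.

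Of 15 tested interferon gamma targets 5 rose and 0 fell (median 1.57, per read 2.16). They were the adhesion molecule Icam1 (3.401), Ciita (3.12), the activator of MHC class II genes and a dendritic marker, Gbp4 (2.54), Irgm1 (2.30) and the transcription factor Irf8 (1.42). Irf8 stood at 69.4, 47.99, 59.8 and 28.6 RPKM in DKOITD 1 to 4, at 21.03 and 28.1 RPKM in ITD 1 and 2 and at 23.4, 23.9 and 9.59 RPKM in WT 1 to 3. Of 20 interferon alpha and beta targets 3 rose and 0 fell (median 1.80, per read 2.51), namely Usp18, Bst2 (3.196), which also marks plasmacytoid dendritic cells, and Ifi44. The median of this list was 1.49 in ITD against WT, where 19 of 20 differences were positive but 0 passed (limma). In DKOITD against ITD it was 0.054, with 11 of 20 positive. Over all tested genes these 2 medians were 0 and 0.11. Ifi44 stood at 108, 2.16, 45.8 and 27.03 RPKM in DKOITD 1 to 4, at 5.13 and 2.14 RPKM in ITD 1 and 2, and was listed at 0 in WT. Of the interferon gamma targets that rose, DKOITD 2 was the lowest of its group in Icam1, Ciita, Gbp4 and Irgm1. In Irf8 it lay above DKOITD 4. It was also the lowest in Usp18, Bst2 and Ifi44 of the interferon alpha and beta list. DKOITD 2 had the highest Ifngr1 of all 9 libraries and the fewest recovered reads, 2825728. A link between Ifngr1 and these targets was not tested.

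In the other comparisons few genes of these lists passed. Against ITD these were Socs2 and Ccl22, named above, and Clec10a, which rose by 3.04 ± 0.53 on the log2 scale (SE; limma adjusted p = 0.0440). In ITD against WT it was Cd209a alone, which rose by 7.94 ± 0.77 on the log2 scale (SE; limma adjusted p = 0.00248).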

How the data were processed

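The authors deposited RPKM per gene symbol, 1 column for each of 9 libraries. Their tools, per the submitters' processing notes and without order, include STAR 2.4.2a, SAMtools 1.1 and HTSeq 0.6.1p1, with the build mm10. Annotation, counting settings and the RPKM divisor were not given in the labels. The RPKM divisor was 1.13 to 1.44 times the recovered reads for DKOITD libraries, 0.853 and 0.919 times for ITD libraries and 0.703 to 0.810 times for WT libraries. Whole reads came out for 15564 of 15566 genes above 0 (tolerance 0.0001 reads). They may be undercounted, and PCR copies are not independent molecules. A gene value does not resolve exons or strand, and GENCODE places a further gene over exons of Csf2rb, Csf2rb2, Il3ra, Il4ra and Il6ra.

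Sample titles gave groups and replicate numbers. Genes at RPKM of 1 or more in 2 or more libraries were retained. A gene at this level in 1 group alone was kept through that group and could hardly come out lower there. The fit used limma 3.58.1 in R 4.3.3 (lmFit and eBayes with trend) on log2(RPKM + 1), with genotype as sole factor over all 9 libraries and two-sided tests under Benjamini-Hochberg adjustment. Differences on this scale understate changes of low genes. Rises and falls given without a p passed 0.05. The code was tested on simulated data. The receptors, the lists and the promoter motifs were chosen with earlier results of these data known. All receptors and partner chains are named, as are up to 6 genes past the threshold per list, by size, and the genes nearest in course. Alternatives were a pseudocount of 0.1, no filter or one at RPKM 5, 3 scalings, the label number series, the replicate number as a block, library weights and libraries left out.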

Additional observations from a re-analysis of the deposited data

Results flagged for a closer look

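Receptors and partner chains, 17 genes, were searched for a DKOITD library far from the other 3, which chance gives in about 1 of 20 genes with distinct values. Of these, 2 were found, and Il5ra besides. Csf2rb was 30.5 RPKM in DKOITD 4, below 42.7, 44.9 and 44.98 RPKM in DKOITD 1 to 3, and the gap took 0.840 of the range of the group. Il10ra was 14.4 RPKM in DKOITD 2, below the other 3, with a gap of 0.837 of the range. Il5ra was 1.62 RPKM in DKOITD 4 and listed at 0 in DKOITD 1 to 3, so its gap is the whole range by construction and the rate above does not apply to it. Groups of 2 or 3 libraries were not searched.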

How the results depend on the processing

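Over 20 alternatives the 10 receptors gave 600 values in 3 comparisons, of which 522 kept direction and side of the threshold, 32 lost and 13 gained the call in the same direction, and 33 turned direction, 1 of which (Csf2rb in DKOITD against WT, on the scale of summed RPKM) also gained the call. In DKOITD against WT the call held under 18 of 20 for Ifngr1 and under 10 each for Csf3r, Csf2ra and Il10ra. The cause of the changes below was not tested, and the depth of low receptors (Csf2rb2, Il3ra, Il4ra) limits their values. With the label number series, DKOITD 4 alone stands for DKOITD, so only differences are given for that setting. In DKOITD against WT, against 4 receptors and 1380 genes, those past were 1 (Ifngr1) and 733 with no filter. They were 2 and 771 without both WT 2 and DKOITD 2 (left out together). They were 0 and 7 without both DKOITD 1 and DKOITD 3 (added after seeing the data). Genes past were 5135 on the scale of summed RPKM and 2772 per read. In DKOITD against ITD, against 23 genes, they were 4 with a filter at RPKM 5 and 42 under quantile normalization. They were 1575 (receptors 6) on the scale of summed RPKM, 274 (receptors 1) per read and 526 (receptors 1) with library weights. They were 0 when DKOITD 1 and DKOITD 3 were both omitted, and 71 when WT 2 and DKOITD 2 were. In ITD against WT, against 1 gene, they were 2 with pseudocount 0.1, 3 with no filter and 0 without both DKOITD 1 and DKOITD 3. Directions turned in DKOITD against WT for Csf2rb 1.14, Il3ra 0.996 and Il4ra 0.28 on the scale of summed RPKM, Csf2rb 0.51 and Il3ra 0.48 per read, Il3ra 0.69 with the label number series, Csf2rb2 -0.19 without both WT 2 and DKOITD 2, and Il3ra 0.21 without both DKOITD 1 and DKOITD 3. Against ITD they turned for Il3ra -0.058 under quantile normalization, Il4ra 0.24 on the scale of summed RPKM and Csf2rb -0.031 with the label number series. In ITD against WT they turned for Csf2ra 0.076, Il3ra 0.033, Il4ra 0.036 and Il6ra 0.26 on the scale of summed RPKM, Il6ra 0.15 per read, Il6ra 0.063 with weights, and Il4ra 0.00211, Il6ra 0.19 and Il10ra -0.14 without both WT 2 and DKOITD 2. With each library left out in turn, receptors past numbered 1 to 4 and genes 537 to 1955 in DKOITD against WT, receptors 0 to 1 and genes 0 to 157 against ITD, and genes 0 to 47 in ITD against WT. The differences that turned ran from -0.090 to 1.02 for Csf2rb2, -0.40 to 0.18 for Il3ra and -0.045 to 0.52 for Ifnar1 in DKOITD against WT, -0.79 to 1.02 for Il3ra against ITD, and -0.10 to 0.29 for Csf3r, -1.15 to 0.65 for Il3ra, -0.59 to 0.12 for Il4ra, -0.18 to 0.19 for Il6ra and -0.14 to 1.11 for Il10ra in ITD against WT.

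The replicate block gave 3 receptors (Il10ra lost, limma adjusted p = 0.0549) and 884 genes in DKOITD against WT, 57 genes against ITD, with Il3ra -0.36 turned, and 0 in ITD against WT, with Csf3r -0.076 turned. Libraries of the same number correlated in their deviations at -0.044 to 0.071. Deviations from the mean of only 2 ITD libraries mirror each other, so these values cannot decide whether the numbers pair libraries.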
